A study of Mus musculus with 12 samples.

Results

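Oxidative phosphorylation (OXPHOS) is the last stage of respiration, in which 5 multiprotein complexes of the mitochondrial inner membrane pass electrons to oxygen and use the proton gradient built on the way to make ATP. Most of their subunits are encoded in the nucleus and imported, and a few are encoded in mitochondrial DNA, so the complexes need both genomes to be expressed together. Oocytes supply nearly all mitochondria of the embryo, and the follicle's granulosa cells are known to feed them pyruvate as a respiratory substrate. The genes described here are the nuclear subunit genes, chosen by gene name alone: names beginning Nduf with a subunit letter and number (complex I), Sdha to Sdhd (complex II), Cyc1 and names beginning Uqcr (complex III), Cox4 to Cox8 with an isoform letter (complex IV), and names beginning Atp5 (complex V), without assembly factors named Ndufaf or names ending in -ps. The rule found 88 gene models (87 symbols) among 55385 in the table of the PRC2 libraries and the same 88 among 55401 in the table of the PRC1 libraries. Complex I held 40 of them, complex II 4, complex III 9, complex IV 17 and complex V 18. Cox4i1, Cox4i2, Ndufab1 and cytochrome c lie outside the name rule and are given separately.

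RNA-seq was made from oocytes isolated from mouse ovaries, in 12 libraries with 2 in each of 6 groups. Non-growing oocytes were taken at postnatal day 6 and growing oocytes at postnatal day 7, so stage and day cannot be told apart. PRC2 control oocytes were EedF/+; Ddx4-Cre and PRC2 conditional knockout (cKO) oocytes were EedF/-; Ddx4-Cre, each at both stages. Eed belongs to the core of Polycomb repressive complex 2 (PRC2). Cre under Ddx4 control acts in germ cells, and every group carried it, so other ovarian cells were not the target of deletion. PRC1 control growing oocytes were Ring1-/-; Rnf2F/+; Ddx4-Cre, so that controls too lacked Ring1. The label of the PRC1 cKO reads Ring1-/-; Ring1F/-; Ddx4-Cre, which repeats Ring1 where the control names Rnf2, and PRC1 cKO here means the libraries so labelled. Ring1 and Rnf2 are paralogues, either of which can serve as the ubiquitin ligase of Polycomb repressive complex 1 (PRC1). The labels leave unstated whether separate animals gave the 2 libraries of each group, so p-values measure only the spread between these libraries.

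The values are transcripts scaled to a sum of 1000000 in each library (TPM), which correct for transcript length and keep no sequencing depth, so no counting interval can be given. Eed stood at 88.9 and 90.5 TPM in the PRC2 control and 12.1 and 10.3 TPM in the PRC2 cKO libraries of non-growing oocytes, and at 62.3 and 60.5 against 9.64 and 10.1 TPM in growing oocytes. Rnf2 did not pass as changed in PRC1 cKO, at 87.8 and 61.4 TPM against 59.2 and 53.8 TPM in control (limma adjusted p = 0.197), and gene-level TPM cannot show the loss of single exons. The 10 oocyte markers summed to between 6669 and 19488 TPM over the 12 libraries. Protein-coding genes held 83.9 to 86.4% of TPM in non-growing libraries but 58.5 to 61.9% in PRC2 growing libraries, 60.3 and 63.1% in PRC1 control and 75.2 and 70.5% in PRC1 cKO. Models of the TEC class, an annotation class awaiting experimental checks, took 2.26 to 2.57% of TPM in non-growing libraries, 23.3 to 25.9% in PRC2 growing libraries, 22.5 and 20.9% in PRC1 control and 11.05 and 14.9% in PRC1 cKO. Because TPM is a share of a fixed sum, these shares move with every level given below.

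The 88 members together made up 45582 and 44805 TPM in PRC2 control non-growing oocytes, which is 4.56 and 4.48% of all TPM. PRC2 cKO non-growing libraries held 48614 and 46994 TPM. In growing oocytes the sum was 20810.3 and 18935 TPM in PRC2 control and 20589.6 and 17503 TPM in PRC2 cKO. PRC1 control growing oocytes, in the other table, held 16453 and 17249 TPM, and PRC1 cKO libraries held 30969 and 30476 TPM. The 4 non-growing sums all lay above the 4 growing sums of the PRC2 table, and both PRC1 cKO sums lay above both PRC1 control sums. In the PRC2 control the mean sum was 2.27-fold higher in non-growing than in growing oocytes, and it was 2.51-fold higher in the PRC2 cKO. In PRC1 cKO the mean sum was 1.82-fold that of its control.

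**Figure D1:**
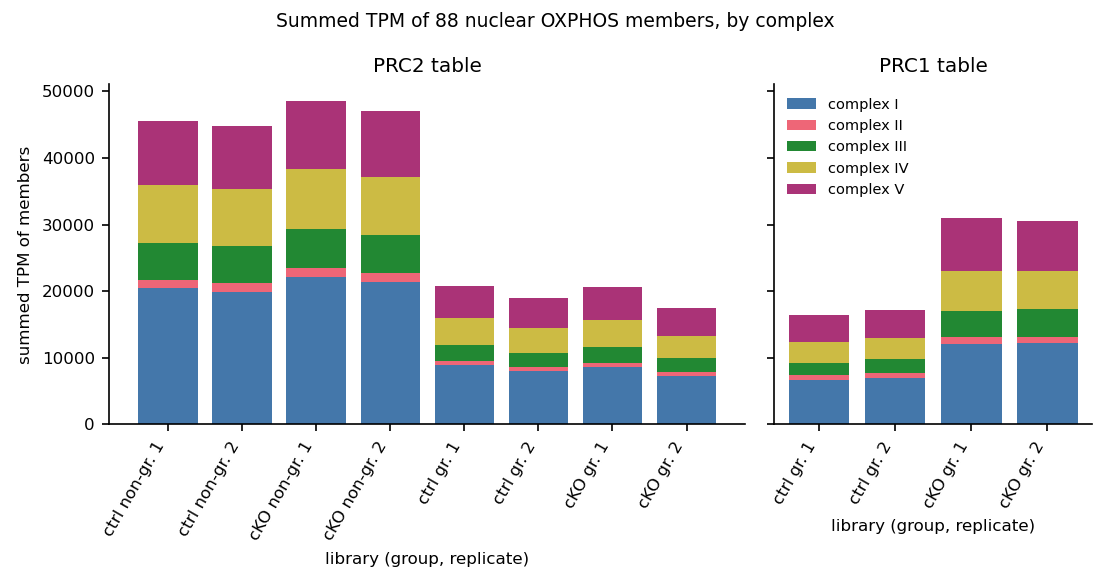
Summed TPM of the 88 members in each of the 12 libraries, stacked by complex, with the PRC2 table on the left and the separately normalized PRC1 table on the right. The sums lie between 44805 and 48614 TPM in non-growing libraries, between 17503 and 20810.3 TPM in PRC2 growing libraries, and at 16453 and 17249 TPM in PRC1 control against 30969 and 30476 TPM in PRC1 cKO.

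Levels differed widely between subunits of the same complex. TPM is scaled per transcript length, so levels of different genes can be set side by side. In PRC2 control non-growing oocytes the median member stood at a mean of 466 TPM in complex I, 304 in complex II, 632 in complex III, 607 in complex IV and 404 in complex V. The highest member of each complex was Ndufa4 at 1544 TPM, Sdhb at 521, Uqcr11 at 1114, Cox6c at 1710 and Atp5o at 1557 TPM (means of 2 libraries). Ndufa4 is now placed with complex IV, but it and its paralogue Ndufa4l2 are counted here by name under complex I. Atp5o is the oligomycin sensitivity protein of the peripheral stalk. Lowest among members of at least 1 TPM were Ndufa4l2 at 4.76, Sdha at 132, Uqcrfs1 at 83.9, Cox7b2 at 2.32 and Atp5g2 at 40.8 TPM. Sdha carries the flavin of complex II and Uqcrfs1 is the Rieske iron-sulfur protein of complex III. The order of the members was largely shared between stages: across 83 members the log2 levels of PRC2 control non-growing and growing oocytes had a Pearson r of 0.97 and a Spearman rho of 0.90, points that share library preparation and transcript length.

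Some members gave too little signal to be tested. Of the 88, 82 reached 1 TPM in at least 2 PRC2 libraries and 83 did so in the PRC1 table. The untested models were the pseudogene models Ndufa11b, Ndufs6b and Cox6c2, the muscle isoform Cox8b, a second read-through model of Atp5o and, in the PRC2 table, the muscle isoform Cox6a2. The highest value among them was 1.66 TPM for Cox6a2 in PRC1 cKO. Read assignment is uncertain for several members with near-identical copies elsewhere. Atp5g2 shares its sequence with Gm10175, which held 560% of its TPM over the PRC2 libraries. Ndufb4 shares its sequence with the processed pseudogene model Ndufb4c, a member by name that held 410% of the TPM of Ndufb4. Copies of Cox7c (Gm12338) and Atp5l (Gm10221) held 43.0 and 42.6% of the TPM of their genes. Ndufs1 overlaps Eef1b2 and Ndufa4l2 overlaps Shmt2 on the opposite strand, and whether counting used strand is not stated in the sources read.

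Promoter sequence was examined because most members moved together between stages. RefSeq (GRCm38.p6) gave at least 1 window of 250 bases before to 50 bases after a start for 68 of the 87 symbols. A gene with several windows was counted once, as matching if any of them matched. Among those missing from it were Atp5a1, Atp5mpl, Cox6a2, Cox6c, Cox6c2, Cox8c, Cyc1, Ndufa11b, Ndufa2, Ndufa4l2, Ndufb4c, Ndufb9, Ndufs1, Ndufs6b, Sdhc, Uqcrb, Uqcrc2 and Uqcrq. Both strands were searched for 4 exact motifs of factors known to bind promoters of respiratory genes or housekeeping genes. The core of the NRF1 motif, cgcatgcg, was found for 9 of 68 members (13.2%) and for 2.07% of all 27025 genes. The motif had been shortened to this core after the matches of a longer form were seen, so these shares are not a test of enrichment. The ETS motif ccggaag, which GABP binds, was found for 17 members (25.0%) and for 9.93% of all genes. The YY1 motif aagatggc was found for 10 members (14.7%) and for 3.19% of all genes. The CRE motif tgacgtca was found for 4 members (5.88%) and for 2.03% of all genes. Taking each gene's window with the most CpG dinucleotides, the median number was 19 for members and 8 for all genes. The shares of all genes given above were not matched to the members for CpG content. A match is a description of letters, and no binding was measured.

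Printed here are 2 windows that hold the NRF1 motif and belong to Uqcrc1 and Ndufa11, which had the lowest and the highest stage change among the 9 members with that motif, and the windows of an isoform pair of which one was low and the other abundant in every library. Uqcrc1 lies at chr9:108936398-108936697 (+ strand), Ndufa11 at chr17:56717512-56717811 (+ strand), Cox7b2 at chr5:71548156-71548455 (- strand) and Cox7b at chrX:106015450-106015749 (+ strand), all GRCm38.p6. Sequences run 5′ to 3′ on the gene's strand, and capitals mark motif matches, which are the NRF1 motif in Uqcrc1 and, in order, the CRE and NRF1 motifs in Ndufa11.
Uqcrc1: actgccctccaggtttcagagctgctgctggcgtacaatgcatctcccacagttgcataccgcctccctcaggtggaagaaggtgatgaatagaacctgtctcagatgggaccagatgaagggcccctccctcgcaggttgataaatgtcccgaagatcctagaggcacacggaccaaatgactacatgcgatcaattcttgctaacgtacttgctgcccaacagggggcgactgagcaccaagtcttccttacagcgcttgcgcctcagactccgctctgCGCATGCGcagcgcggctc
Ndufa11: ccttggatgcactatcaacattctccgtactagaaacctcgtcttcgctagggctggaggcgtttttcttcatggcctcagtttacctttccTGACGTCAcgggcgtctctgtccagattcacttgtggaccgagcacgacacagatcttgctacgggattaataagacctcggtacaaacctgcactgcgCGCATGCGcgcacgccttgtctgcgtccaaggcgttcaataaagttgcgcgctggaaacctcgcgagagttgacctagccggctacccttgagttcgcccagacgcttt
Cox7b2: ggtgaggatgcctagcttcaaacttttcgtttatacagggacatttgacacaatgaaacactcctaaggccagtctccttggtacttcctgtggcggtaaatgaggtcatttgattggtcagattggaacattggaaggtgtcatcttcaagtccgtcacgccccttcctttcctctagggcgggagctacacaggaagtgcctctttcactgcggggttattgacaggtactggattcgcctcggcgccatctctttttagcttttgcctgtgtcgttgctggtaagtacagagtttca
Cox7b: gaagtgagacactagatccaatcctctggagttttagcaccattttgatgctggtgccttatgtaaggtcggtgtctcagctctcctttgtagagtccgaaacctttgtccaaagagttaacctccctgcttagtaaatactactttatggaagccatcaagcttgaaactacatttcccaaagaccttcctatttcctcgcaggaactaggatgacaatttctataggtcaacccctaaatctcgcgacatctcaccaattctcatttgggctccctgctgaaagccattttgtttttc
The Cox7b2 and Cox7b windows hold none of the 4 motifs and have 10 and 5 CpG dinucleotides, against 15 in Uqcrc1 and 25 in Ndufa11. No match overlapped another in these windows.

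Growing oocytes were compared with non-growing oocytes first in the PRC2 control, which asks how the OXPHOS genes differ between the stages with Eed present. The members' share of TPM fell at the growing stage in all 5 complexes. By limma on log2(TPM + 1), with an adjusted p below 0.05 over all 14153 genes tested, 80 of 82 members were lower and 0 were higher in growing oocytes. Over all genes tested 54.0% were lower and 16.6% were higher. The median change was -1.20 over the members and -0.67 over all genes, a difference of -0.52. Complex medians were -1.23 in I, -1.19 in II, -1.15 in III, -1.48 in IV and -1.09 in V. In bulk libraries such as these, fewer cells with a transcript and less of it per cell cannot be told apart.

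The core subunits of complex I, which carry the electrons, all passed with lower levels, 7 of 7. Ndufs1, which holds iron-sulfur clusters, stood at 66.0 and 73.3 TPM in non-growing and 20.8 and 18.7 TPM in growing control oocytes. The groups did not overlap, and the log2 change was -1.77 (SE 0.12, limma adjusted p = 2.91e-05). Ndufv1 and Ndufv2 changed by -1.56 and -1.11. Accessory subunits surround the core. Of 30 tested members grouped with them by name, Ndufa4 and Ndufa4l2 included, 28 were lower. Ndufa5 stood at 957 and 922 TPM in non-growing and 268 and 241 TPM in growing control oocytes, a change of -1.88 (SE 0.11, limma adjusted p = 1.56e-05). Ndufa3 changed by -2.07, and Ndufa13, Ndufa7 and Ndufc1 by -1.98, -1.94 and -1.81. The accessory members Ndufa1, Ndufa2, Ndufa4, Ndufa6, Ndufa8, Ndufa9, Ndufa10, Ndufa12, Ndufb2, Ndufb3, Ndufb4, Ndufb5, Ndufb6, Ndufb7, Ndufb8, Ndufb9, Ndufb10, Ndufb11, Ndufc2, Ndufs4, Ndufs5, Ndufs6 and Ndufv3 also passed, as did the pseudogene model Ndufb4c. The accessory subunit Ndufa11 did not pass. It stood at 677 and 654 TPM in non-growing and 593 and 571 TPM in growing control oocytes, a change of -0.19 (SE 0.10, limma adjusted p = 0.116). The paralogue Ndufa4l2 did not pass either, at 5.30 and 4.23 TPM against 3.96 and 1.84 TPM (limma adjusted p = 0.109).

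Complex II oxidizes succinate and is encoded by nuclear genes alone. All 4 of its genes were lower in growing control oocytes. Sdhb, its iron-sulfur subunit, stood at 520.0 and 521 TPM in non-growing and 169.9 and 162 TPM in growing libraries, a change of -1.64 (SE 0.10, limma adjusted p = 1.9e-05). Sdhc, a membrane anchor, changed by -1.43 (SE 0.10, limma adjusted p = 3.61e-05) from 279 and 289.5 to 102 and 108 TPM. Sdha and the other anchor, Sdhd, changed less, by -0.94 and -0.59. Sdhb thus made up 41.9 and 40.6% of the summed TPM of complex II in non-growing control libraries and 30.4 and 29.5% in growing ones. Such a share within a library is unchanged by a single factor per library, as in trimmed-mean and protein-coding scaling. Quantile normalization can change it. The subunits for these shares were chosen after their values were seen.

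All 9 complex III genes were lower in growing control oocytes. Uqcrc1, a core protein of the complex, stood at 689.5 and 736 TPM in non-growing and 220.4 and 212 TPM in growing libraries, a change of -1.72 (SE 0.07, limma adjusted p = 6.47e-06). Cyc1, which is cytochrome c1, changed by -1.73 (SE 0.10, limma adjusted p = 1.68e-05) from 314 and 364 to 107 and 96.2 TPM. Uqcrc2, the partner core protein, differed from both, at 246 and 249 TPM in non-growing and 179 and 185 TPM in growing libraries, a change of -0.44 that was higher in growing oocytes under trimmed-mean and quantile scaling. Of the summed TPM of Uqcrc1 and Uqcrc2, Uqcrc2 made up 26.3 and 25.2% in non-growing and 44.8 and 46.6% in growing control libraries, with no overlap between stages. The other complex III members, Uqcrfs1, Uqcr10, Uqcr11, Uqcrb, Uqcrh and Uqcrq, changed by -1.94 to -0.90.

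Complex IV passes the electrons to oxygen, and several of its subunits exist as a general form and a tissue-restricted form. All 14 tested members were lower in growing control oocytes. Cox8a, the general form of subunit 8, stood at 438 and 458 TPM in non-growing and 142 and 139 TPM in growing libraries, a change of -1.66 (SE 0.07, limma adjusted p = 6.48e-06). Cox6b1 changed by -1.57 (SE 0.10, limma adjusted p = 2.18e-05) from 653 and 669 to 239.8 and 205 TPM. Cox5a changed least, by -0.65, and the other general members, Cox5b, Cox6a1, Cox6c, Cox7a2, Cox7a2l, Cox7b and Cox7c, changed by -1.78 to -0.70. The testis isoform Cox8c stood at 16.4 and 14.0 TPM in non-growing and 1.22 and 2.94 TPM in growing control oocytes, a change of -2.45 (SE 0.36, limma adjusted p = 0.000901). Another testis isoform, Cox6b2, was abundant in these oocytes, at 278 and 295 TPM in non-growing and 148 and 132 TPM in growing libraries. Cox6b2 made up 29.9 and 30.6% of the summed TPM of Cox6b1 and Cox6b2 in non-growing and 38.1 and 39.1% in growing control libraries. The muscle isoform Cox7a1 stood at 13.6 and 16.5 TPM against 4.95 and 4.00 TPM. Cox7b2, also known from testis, stood at 3.32 and 1.32 TPM in non-growing oocytes, was listed at 0 in 1 growing library and stood at 0.13 TPM in the other. The call on Cox7b2 did not hold without PRC2 control non-growing replicate 1 and without PRC2 control growing replicate 1 (limma adjusted p = 0.0829 and 0.0667).

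Complex V, the ATP synthase, had 17 tested members, all lower in growing control oocytes. In its peripheral stalk Atp5pb, subunit b, stood at 359 and 359 TPM in non-growing and 148 and 129.6 TPM in growing libraries, a change of -1.37 (SE 0.09, limma adjusted p = 2.17e-05). Atp5o changed by -1.49 (SE 0.10, limma adjusted p = 2.7e-05) from 1559.8 and 1553 to 582 and 527 TPM. The other stalk members Atp5j and Atp5h changed by -1.39 and -0.74. The catalytic F1 members Atp5a1, Atp5b, Atp5c1, Atp5d and Atp5e changed by -1.46 to -0.74, and the other membrane members Atp5j2, Atp5k, Atp5l, Atp5md and Atp5mpl by -1.51 to -0.70. Atp5g1, Atp5g2 and Atp5g3 encode the same mature c subunit of the rotor ring. Atp5g1 was the most abundant of them, at 1009 and 1036 TPM in non-growing and 683 and 680.0 TPM in growing control oocytes, a change of -0.58. Atp5g3 changed by -1.31, from 289.8 and 288 to 118 and 113 TPM. Its share of the summed TPM of the c subunit genes went from 21.6 and 21.1% to 14.3 and 13.8%. That sum leaves out Gm10175, which shares the sequence of Atp5g2, so the share depends on how reads were assigned.

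In PRC2 cKO oocytes the same stages were compared in other libraries. With Eed deleted, 81 of 82 members were lower and 0 were higher in growing oocytes, where 46.0% of all genes tested were lower and 20.1% higher. The median change was -1.40 over the members and -0.45 over all genes. All 80 members that were lower in the control were also lower in the cKO. Across the 82 members the changes in the control and in the cKO, which share no library, had a Pearson r of 0.88 and a Spearman rho of 0.89. Over all 14153 genes r was 0.89 and rho 0.86. Ndufs1 changed by -1.77 here as well (limma adjusted p = 2.73e-05). Ndufa5 changed by -1.98 and Sdhb by -2.15, from 631 and 603 to 151 and 126 TPM. Sdhc, Uqcrc1, Uqcrb, Cox8a, Cox6b1, Atp5o and Atp5pb changed by -1.03, -1.63, -1.42, -1.43, -1.57, -1.70 and -1.36. Ndufa11, which had not passed in the control, was lower in the cKO, with a change of -0.50 (SE 0.10, limma adjusted p = 0.00354) from 735 and 690.4 to 552 and 459.9 TPM. The test of the difference between the genotypes, given below, did not call Ndufa11. Only Ndufa4l2 among the tested members did not pass in the cKO, at 2.32 and 3.42 TPM against 2.77 and 2.14 TPM. Cox8c stood at 22.0 and 25.2 TPM in non-growing and 2.92 and 1.11 TPM in growing cKO oocytes, a change of -3.09 (SE 0.36, limma adjusted p = 0.000308).

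How many members passed depended on how libraries were scaled. Trimmed-mean scaling moved the median change of all genes in the control from -0.67 to -0.03. After it, 38 members were lower and 2, Ndufa11 and Uqcrc2, were higher in growing control oocytes, where 27.3% of all genes were lower and 29.5% higher. Quantile normalization gave 67 lower and the same 2 higher (36.1% of all genes lower and 24.9% higher), and scaling to protein-coding genes gave 67 lower and 0 higher (38.7% of all genes lower and 23.3% higher). The members' median stayed below that of all genes under each of these scalings, with differences of -0.52 as deposited, -0.35 with trimmed means, -0.43 with quantiles and -0.41 with protein-coding genes. In the cKO 61 members were lower after trimmed-mean scaling (30.1% of all genes lower and 30.6% higher), 70 after quantile normalization (37.9% lower), which also called Uqcrc2 higher (25.8% of all genes higher), and 70 after protein-coding scaling (32.3% lower and 28.8% higher). The median of each complex stayed below 0 in both genotypes under all 3 scalings. The calls on 38 members in the control and 60 in the cKO held under all 3 scalings, among them Ndufa5, Sdhb, Sdhc, Uqcrc1, Cox8a, Cox6b1, Cox8c, Atp5o and Atp5pb in the control.

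**Figure D2:**
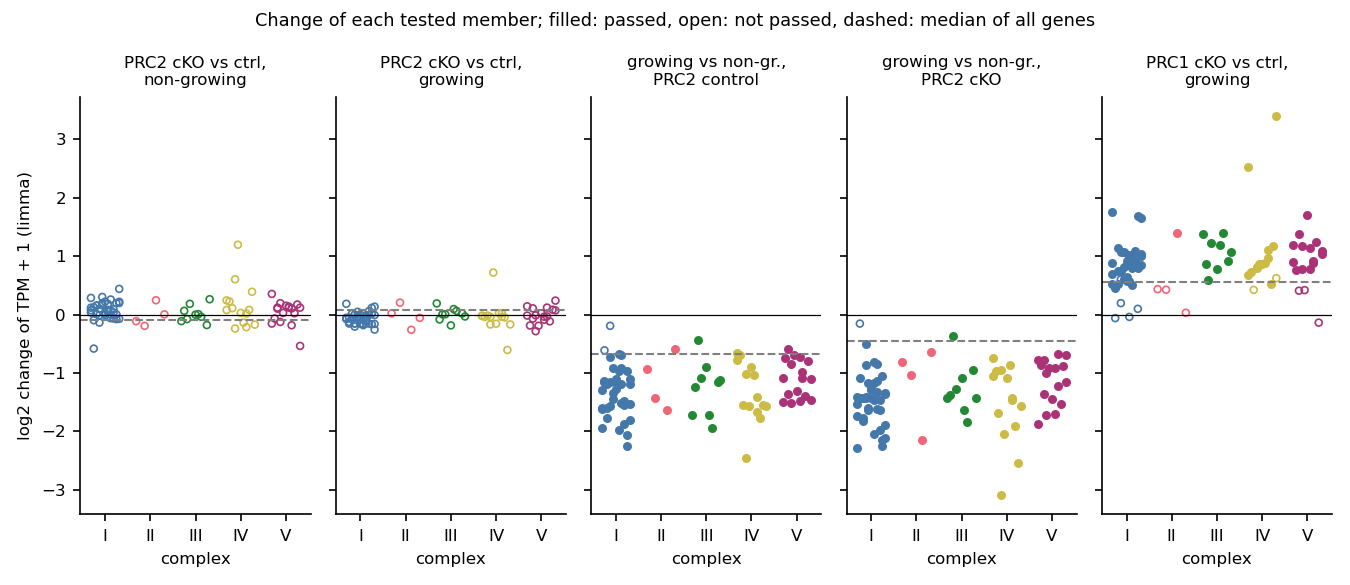
Log2 change of TPM + 1 (limma) of each tested member, by complex I to V, in 5 comparisons. Filled points passed the adjusted p threshold, open points did not, and the dashed line is the median of all genes tested. No point is filled for PRC2 cKO against control, while 80 and 81 members are lower in growing oocytes and 70 are higher in PRC1 cKO with TPM as deposited.

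**Figure D3:**
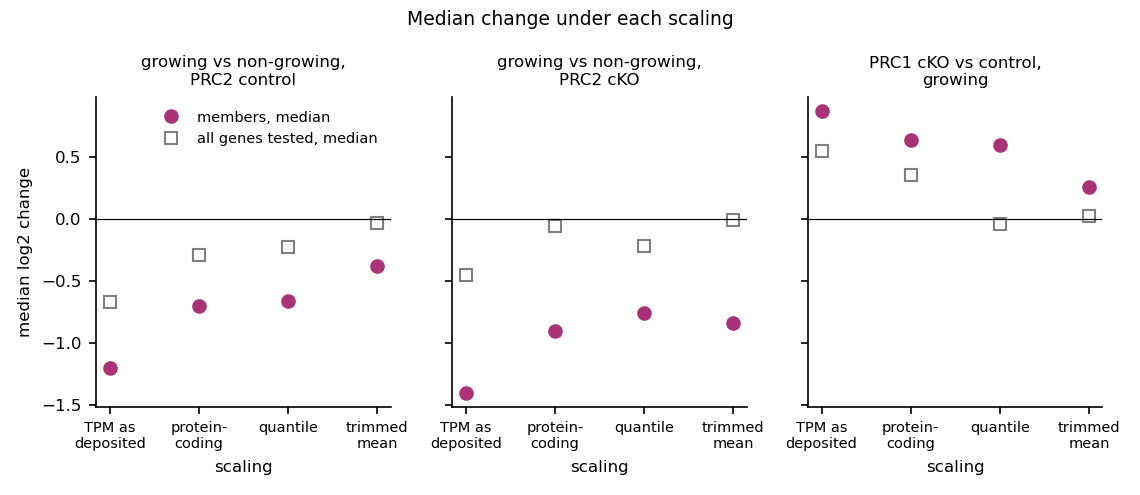
Median log2 change of the members (filled circles) and of all genes tested (open squares) with TPM as deposited and under 3 scalings. The members' median lies below that of all genes in both stage comparisons and above it in PRC1 cKO under each scaling, from -1.20 against -0.67 as deposited to -0.38 against -0.03 with trimmed means in the PRC2 control.

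Other genes of respiration are given by list and read against the 54.0% of all genes that were lower and the 16.6% that were higher in growing control oocytes. Of the 13 subunits encoded in mitochondrial DNA, 12 were lower in growing control oocytes and 0 were higher, with mt-Nd1 at -1.39 (SE 0.07, limma adjusted p = 1.01e-05). Their summed TPM was 36.8 to 40.7% of the members' sum in every PRC2 library. Among assembly factors, 13 of 16 tested for complex I were lower, 3 of 4 for complex II, 6 of 6 for complex III, 17 of 20 for complex IV with 1 higher, and 2 of 3 for complex V. Ndufaf1, a complex I factor, changed by -2.32 and Uqcc3, a complex III factor, by -3.69. Citric acid cycle genes were lower in 11 of 14 cases and higher in 0, with Suclg2 at -2.56. With trimmed means the complex V assembly factors had a median of 0.13, and the medians of the other lists named so far stayed below 0 under each scaling. Of the subunits outside the name rule, Cox4i1, the general subunit 4 of complex IV, changed by -1.23 and Ndufab1 by -1.15. Cycs, somatic cytochrome c, stood at 34.0 and 33.5 TPM in non-growing and 32.3 and 35.7 TPM in growing control oocytes, whereas Cyct, its testis form, stood at 28.3 and 31.0 TPM against 5.07 and 3.61 TPM. Regulators of mitochondrial biogenesis split, with 8 of 13 tested lower and 4 higher. Among the latter, Esrrb, an orphan nuclear receptor, stood at 0.37 and 0.08 TPM in non-growing and 15.7 and 30.1 TPM in growing control oocytes.

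Markers of other cells moved between the stages at low levels and not all in 1 direction. Of all genes tested, 16.6% were higher and 54.0% lower in growing control oocytes. The 11 granulosa cell markers summed to 3.42 to 5.19 TPM in non-growing and 9.25 to 12.7 TPM in PRC2 growing libraries, where 1 of 4 tested passed as higher in the control and Foxl2 and Amh stood at 0 to 0.13 TPM. The granulosa marker that passed was Nr5a2, at 0.48 and 0.39 TPM in non-growing and 4.95 and 5.06 TPM in growing control libraries. The 6 immune cell markers summed to 0.55 to 1.99 TPM in non-growing and 4.81 to 13.6 TPM in PRC2 growing libraries. Most of the growing control sum was C1qb, at 10.7 and 11.05 TPM against 1.06 and 1.03 TPM in non-growing libraries. Stroma markers went the other way, summing to 4.21 and 3.59 TPM in non-growing and 1.61 and 1.44 TPM in growing control libraries. Endothelial sums in these libraries were 7.94 and 7.11 against 4.94 and 7.86 TPM. Of 2 muscle markers tested, Acta2 was higher and Myh11 lower. Among 10 oocyte markers, 3 were higher and 5 lower in growing control oocytes, with the growth factor Gdf9 at 596 and 637 TPM against 3706 and 4019 TPM and the transcription factor Figla at 966 and 992 TPM against 362 and 302 TPM. The part of these in the members' changes was not tested.

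PRC2 cKO was then compared with control at each stage, which asks whether the OXPHOS genes differ when Eed is deleted. No member passed at either stage. In non-growing oocytes 0 of 82 were higher and 0 lower by limma, where 0.113% of all genes tested were higher and 0.198% lower, and at an unadjusted p below 0.05 there were 8 members higher and 2 lower, against 5.85% of all genes higher and 10.5% lower at that threshold. The median change was 0.07 over the members and -0.09 over all genes. The smallest adjusted p in each complex belonged to Ndufb6, Sdhb, Uqcrb, Cox8a and Atp5k. Ndufb6, a membrane arm subunit of complex I, stood at 452 and 451 TPM in control against 589.7 and 525 TPM in cKO, a change of 0.30 (SE 0.10, limma adjusted p = 0.233). Cox8a went the other way, from 438 and 458 to 388 and 383 TPM, a change of -0.22 (SE 0.07, limma adjusted p = 0.231). Neither adjusted p passed. In both the libraries of the groups did not overlap, as tends to be so in members picked for a small p. Sdhb, Uqcrb and Atp5k changed by 0.25, 0.26 and 0.35, with limma adjusted p of 0.295, 0.28 and 0.261. Of all members Cox7b2 had the highest value, 1.20 (SE 0.43, limma adjusted p = 0.267), at 9.72 and 3.91 TPM in cKO against 3.32 and 1.32 TPM in control.

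In growing oocytes 0 of 82 members were higher and 0 lower in PRC2 cKO by limma, where 0.120% of all genes were higher and 0.0495% lower, and at an unadjusted p below 0.05 there were 0 members higher and 3 lower, against 6.73% of all genes higher and 3.21% lower. The median change was -0.04 over the members and 0.08 over all genes, and its sign turned when PRC2 control growing replicate 1 was left out (0.03) and when PRC2 cKO growing replicate 2 was (0.048), and it was -0.18 without PRC2 cKO growing replicate 1. Atp5c1, the rotor shaft subunit of ATP synthase, stood at 143 and 134 TPM in control against 116 and 111 TPM in cKO, a change of -0.29 (SE 0.09, limma adjusted p = 0.391). Cox7a1 stood at 4.95 and 4.00 against 2.19 and 3.02 TPM, a change of -0.61 (SE 0.20, limma adjusted p = 0.423). Ndufb10, Sdhb and Cyc1 had the smallest p of their complexes and changed by -0.26, -0.26 and 0.19 (limma adjusted p = 0.521, 0.479 and 0.577). The 2 growing cKO libraries differed between themselves: replicate 2 was lower than replicate 1 in 70 of 82 members, with a median difference of -0.25. In the growing control libraries replicate 2 was lower in 75 of 82 members, with a median difference of -0.12. Each of these differences is larger in size than the median change between the genotypes.

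A test of the difference between the cKO effects at the growing and the non-growing stage called 0 of 82 members in either direction, where 0.0919% of all genes were higher and 0.00707% lower, with 3 members higher and 3 lower at an unadjusted p below 0.05, against 12.2% of all genes higher and 3.56% lower. Ndufb8, Sdhb, Cyc1, Cox7a1 and Atp5d had the smallest p of their complexes, with differences of -0.41, -0.51, 0.30, -0.998 and 0.78 (limma adjusted p = 0.305, 0.305, 0.336, 0.305 and 0.305). Without PRC2 cKO growing replicate 1 the test called 3 members lower, Sdhb, Ndufa12 and Ndufb8, and 0.479% of all genes lower and 6.11% higher.

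PRC1 cKO oocytes were compared with their control at the growing stage in the other table, which asks whether the OXPHOS genes differ when PRC1 is disrupted as labelled. Here the members' share of TPM was higher in the cKO. By limma with an adjusted p below 0.05 over 14941 genes, 70 of 83 members were higher and 0 were lower, where 41.3% of all genes tested were higher and 6.45% lower. The median change was 0.86 over the members and 0.55 over all genes. Complex medians were 0.81 in I, 0.43 in II, 1.07 in III, 0.86 in IV and 0.92 in V. Calls passed for 33 of 38 members in complex I, 1 of 4 in complex II, 9 of 9 in complex III, 13 of 15 in complex IV and 14 of 17 in complex V.

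In complex I the accessory subunits Ndufc1 and Ndufa1 had the smallest p. Ndufc1 stood at 143 and 135 TPM in control against 439.9 and 442 TPM in cKO, a change of 1.66 (SE 0.12, limma adjusted p = 0.00212). Ndufa1 stood at 186 and 188 against 592 and 676 TPM, a change of 1.75 (SE 0.13, limma adjusted p = 0.00219). In both genes each cKO library was far above each control library. Ndufa3 changed by 1.69, and the core subunits that passed, Ndufs1 and Ndufv2 among them, by 0.52 to 1.14. The core subunit Ndufv1, which binds NADH, did not pass at 158.5 and 206 against 311 and 243 TPM (limma adjusted p = 0.0583). Ndufb11 stood at 469 and 464 against 411 and 501 TPM, Ndufb3 at 49.7 and 49.5 against 54.4 and 52.0 TPM, and Ndufa9 at 287 and 308 against 329.5 and 353 TPM. These 3 accessory subunits and Ndufa4l2 did not pass, and in Ndufb11 and Ndufa4l2 the groups overlapped. Ndufa11, which did not pass between the stages of the PRC2 control, stood at 440.0 and 426 against 712 and 741 TPM, a change of 0.75 (SE 0.12, limma adjusted p = 0.00739).

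Complex II was the complex with the lowest median. Its only call was Sdhb, at 149.9 and 159 TPM in control against 413 and 404 TPM in cKO, a change of 1.40 (SE 0.12, limma adjusted p = 0.00246). The anchor Sdhd stood at 224 and 256 against 235 and 255 TPM, with overlapping groups, and Sdha and Sdhc changed by 0.44 and 0.43 without passing (limma adjusted p = 0.064 and 0.161). Within complex II the share of Sdhb in deposited TPM was 24.2 and 22.6% in control and 39.0 and 41.6% in cKO. Scaling by a single factor per library leaves it unchanged. In complex III all 9 members were higher. Uqcr10, a small subunit, stood at 179.6 and 189 against 439 and 537 TPM, a change of 1.39 (SE 0.15, limma adjusted p = 0.00328), and Uqcrb changed by 1.07 (SE 0.12, limma adjusted p = 0.00365). Uqcrc1 stood at 209.8 and 255 against 533 and 530.2 TPM, a change of 1.20. Uqcrc2 changed by 0.58, and its share of the core protein pair went from 49.9 and 47.4% to 38.5 and 38.0%.

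The largest changes of any member in PRC1 cKO were those of testis isoforms of complex IV. Cox8c stood at 2.07 and 3.31 TPM in control against 45.2 and 30.8 TPM in cKO, a change of 3.40 (SE 0.30, limma adjusted p = 0.00249). Cox7b2 stood at 0.60 and 0.96 TPM in control against 10.7 and 8.02 TPM in cKO, a change of 2.53 (SE 0.25, limma adjusted p = 0.0029). Cox8c made up 1.18 and 1.65% of the summed TPM of Cox8a and Cox8c in control and 11.04 and 9.71% in cKO, and Cox7b2 went from 0.50 and 0.85% to 5.04 and 3.503% of its pair with Cox7b. Their general partners Cox8a and Cox7b changed by 0.80 and 0.86. Cox6b2, the testis isoform that was abundant at both stages, did not follow, at 91.1 and 113 against 135 and 138 TPM (change 0.42, limma adjusted p = 0.0785, -0.19 under trimmed-mean scaling), while Cox6b1 changed by 0.88. The muscle isoform Cox7a1 passed narrowly at 1.81 and 2.03 against 3.35 and 5.47 TPM (limma adjusted p = 0.0495), and the call was lost without PRC1 control growing replicate 1 or 2 or PRC1 cKO growing replicate 2 (limma adjusted p = 0.206, 0.133 and 0.167). The remaining general members of complex IV rose by 0.52 to 1.17, led by Cox6c from 430.2 and 402 to 916 and 962 TPM.

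**Figure D4:**
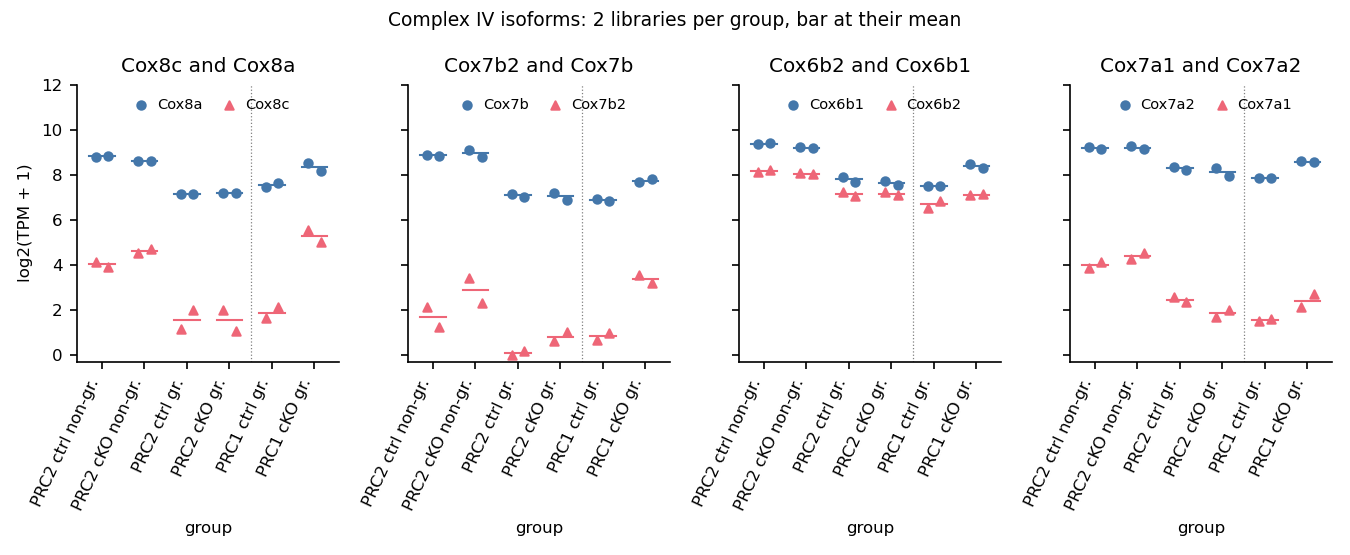
Levels, as log2(TPM + 1), of 4 tissue-restricted complex IV isoforms (triangles) and their general partners (circles), with 2 libraries per group and a bar at their mean; the dotted line parts the separately normalized tables. Cox8c and Cox7b2 are low in growing control oocytes and reach 45.2 and 10.7 TPM in PRC1 cKO, while Cox6b2 stays between 91.1 and 295 TPM in all libraries.

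In complex V the stalk subunit Atp5j stood at 145 and 155 TPM in control against 350.4 and 362 TPM in cKO, a change of 1.24 (SE 0.12, limma adjusted p = 0.00281). Atp5md, a small membrane subunit, changed by 1.18 (SE 0.13, limma adjusted p = 0.00345) from 121 and 108 to 257 and 263 TPM. The F1 members Atp5a1, Atp5b, Atp5c1, Atp5d and Atp5e were higher by 0.78 to 1.09, and in the first 4 of them cKO replicate 1 was well above replicate 2. The 3 c subunit genes differed among themselves. Atp5g3 stood at 107 and 141 against 481 and 339 TPM, a change of 1.71 (SE 0.23, limma adjusted p = 0.00533). Atp5g1, at 657 and 679 against 835 and 942 TPM, and Atp5g2, at 43.2 and 36.1 against 42.6 and 30.01 TPM, did not pass (limma adjusted p = 0.0506 and 0.635). Atp5g3 thus went from 13.3 and 16.5% to 35.4 and 25.8% of the summed TPM of the c subunit genes. The values of Atp5g2 and these shares depend on how reads were assigned between Atp5g2 and its copy Gm10175, which the sum leaves out. Atp5j2 did not pass either, while Atp5h, Atp5k, Atp5l, Atp5mpl, Atp5o and Atp5pb rose by 0.77 to 1.38.

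The number of calls in PRC1 cKO moved more with the settings than in the stage comparisons. Trimmed-mean scaling took the median change of all genes from 0.55 to 0.03 and left 15 members higher and 3 lower, namely Atp5g2, Ndufb3 and Sdhd, where 23.4% of all genes were higher and 19.1% lower. The members' share of higher calls, 15 of 83, then lay below that of all genes. Quantile normalization gave 52 higher (18.2% of all genes) and 1 lower, Ndufa4l2 (17.6%), and protein-coding scaling gave 57 higher and 0 lower (33.8% and 10.1% of all genes). The complex II median turned to -0.18 with trimmed means, and the medians of the other complexes stayed above 0 under each scaling. Leaving out PRC1 control growing replicate 1 left 43 members higher and ended the calls on Cox8a and Cox7a2 (limma adjusted p = 0.0851 and 0.0614), and leaving out any other library left 55 to 67. Calls on 15 members held under all 3 scalings, namely Ndufa1, Ndufa3, Ndufb6, Ndufb9, Ndufc1, Ndufs1, Sdhb, Cyc1, Uqcr10, Uqcrc1, Cox7b2, Cox8c, Atp5g3, Atp5j and Atp5pb.

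Other respiratory genes in PRC1 cKO are read against the 41.3% of all genes that were higher and the 6.45% that were lower. Of the 13 subunits encoded in mitochondrial DNA, 12 were tested and 10 were higher, with mt-Nd1 at 1.94 (SE 0.16, limma adjusted p = 0.00236). Their sum was 17.98 and 15.1% of the members' sum in control and 28.4 and 25.4% in cKO, so that it moved by more than the nuclear members did. Assembly factors were higher in 10 of 16 tested for complex I, 3 of 4 for complex II, 5 of 6 for complex III, 9 of 20 for complex IV and 1 of 3 for complex V, though the medians of the complex IV and V factors were -0.06 and -0.18 with trimmed means, and that of the complex V factors -0.01 with quantiles. Ndufaf1 changed by 2.42, from 4.57 and 5.15 to 30.6 and 30.1 TPM. Citric acid cycle genes were higher in 9 of 14 cases. Cyct, the testis cytochrome c, stood at 3.67 and 3.26 against 31.6 and 18.01 TPM, a change of 2.48 (SE 0.32, limma adjusted p = 0.00459), and Cox4i1 changed by 1.34. Regulators of biogenesis split again, with 4 of 14 higher and 2 lower. Esrrb was one of the latter, at 19.3 and 20.6 against 4.61 and 5.87 TPM.

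Summed markers of other cell types stood higher in the PRC1 cKO libraries, at low levels and not for every marker. The marker counts are for TPM as deposited, where 41.3% of all genes tested were higher and 6.45% lower. Granulosa cell markers, 11 in all, summed to 9.92 and 12.7 TPM in control against 40.1 and 26.7 TPM in cKO, with 4 of 5 tested higher, while Nr5a2 stood at 6.40 and 6.62 against 3.77 and 4.04 TPM (limma adjusted p = 0.0632) and Foxl2 was listed at 0 in both controls and stood at 0.19 and 0.14 TPM in cKO. Sums for the 6 immune cell markers were 14.2 and 15.0 against 43.0 and 36.5 TPM, for the 8 stroma markers 1.06 and 0.93 against 6.5 and 9.61 TPM, and for the 9 muscle markers 4.62 and 3.93 against 9.34 and 9.41 TPM. Most of the immune sum was C1qb, at 11.6 and 12.8 against 38.8 and 33.5 TPM, while the other immune marker tested, Cd68, stood at 2.49 and 2.11 against 2.69 and 2.50 TPM (limma adjusted p = 0.629). The 1 stroma marker tested was higher, as were 2 of 3 muscle and 2 of 3 endothelial markers tested, whereas the smooth muscle gene Acta2, which was not tested, stood at 2.13 and 0.84 against 0.05 and 0.10 TPM. Endothelial markers, 5 in all, summed to 7.30 and 5.96 against 9.45 and 12.01 TPM and 5 erythroid markers to 0.25 and 0.85 against 2.40 and 2.38 TPM, with 0 of the erythroid markers tested. Of the 10 oocyte markers 4 were higher and 4 lower in cKO, with Gdf9 at 4864 and 5225 against 1572 and 2205 TPM, Figla at 282 and 382 against 683 and 630.2 TPM, and Sohlh1 at 90.0 and 157 against 986 and 598 TPM. Gene models at 1 TPM or more numbered 12313 and 12592 in control and 15582 and 14940 in cKO. The part of these in the members' changes was not tested.

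The stage change in the PRC2 control and the change in PRC1 cKO rest on libraries of different tables and could be set against each other. Of the 80 members lower in growing control oocytes, 69 (86.2%) were higher in PRC1 cKO, which is 98.6% of the 70 higher there. These counts are for TPM as deposited. Only 38 of the 80 stage calls and 15 of the 70 PRC1 calls held under all 3 scalings. Over all genes tested in both tables, 53.8% of the 7155 lower in growing control oocytes were higher in PRC1 cKO, which is 78.6% of the 4891 higher there. Across 82 members the 2 changes had a Pearson r of -0.61 and a Spearman rho of -0.61, and without Cox8c and Cox7b2 r was -0.58. Over all 13147 genes tested in both tables r was -0.56 and rho -0.57, so the inverse relation was shared with genes in general. The 5 members with the highest PRC1 changes were Cox8c, Cox7b2, Ndufa1, Atp5g3 and Ndufa3, with stage changes of -2.45, -1.57, -1.59, -1.31 and -2.07. The 12 members tested in both tables that did not pass in PRC1 cKO had stage changes from -1.56 in Ndufv1 to -0.58 in Atp5g1. Ndufa11 stood apart, with a stage change of -0.19 and a PRC1 change of 0.75. Members with the NRF1 motif core in the promoter window, Uqcrc1 and Ndufa11 among them, had a median stage change of -1.09 (9 members) against -1.29 (58 without it) and a median PRC1 change of 0.92 against 0.86. For the ETS motif the medians were -1.16 (17 members) against -1.23 (50 without it) between stages and 0.88 against 0.85 in PRC1 cKO. For the YY1 motif they were -1.33 (10 members) against -1.19 (57 without it) and 0.84 against 0.86, and for the CRE motif -1.17 (4 members) against -1.27 (63 without it) and 0.77 against 0.86.

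**Figure D5:**
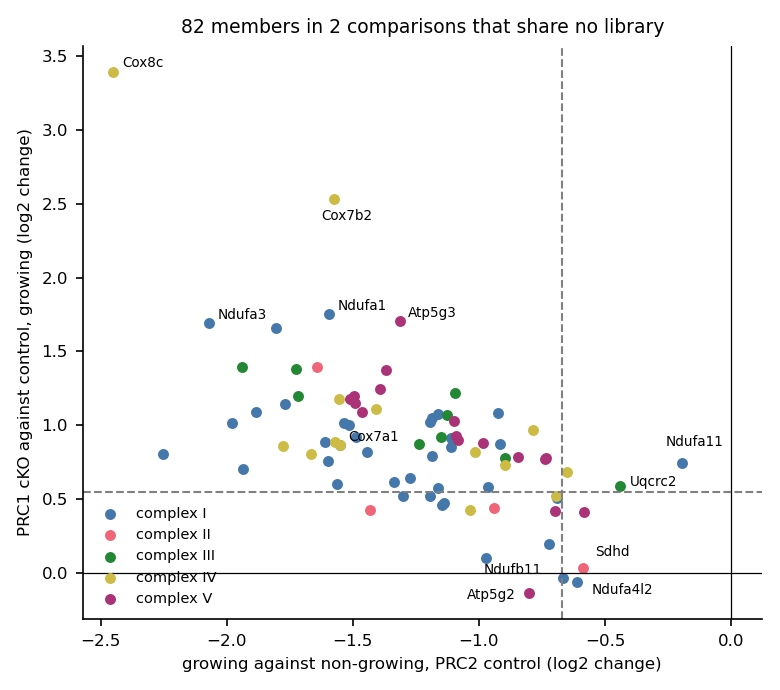
Log2 change between stages in the PRC2 control (x axis) against the log2 change in PRC1 cKO (y axis) for 82 members, coloured by complex, with dashed lines at the medians of all genes tested. Members with the most negative change between stages tend to have the highest change in PRC1 cKO (r of -0.61). Over all 13147 genes tested in both tables r was -0.56. Cox8c lies at -2.45 and 3.40, and Ndufa11 lies apart at -0.19 and 0.75.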

How the data were processed

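Purified oocyte RNA (RNeasy Plus Micro) was turned into NEBNext low-input libraries and sequenced as pairs of 150 bases, per the labels' protocols. The authors deposited TPM in 2 tables, which were never pooled. Their tools, per the submitters' processing notes, included Trim Galore 0.6.10, HISAT2, SAMtools, RSEM 1.3.3 and Subread 2.0.3, with GRCm38. The tool that gave TPM was not given in the sources used here, nor its use of strand or of reads with several matches. TPM keeps no depth, so no count test was run.

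Genes at 1 TPM or more in at least 2 libraries were fitted per table as log2(TPM + 1), with every group in 1 model and no covariate, by limma 3.58.1 under R 4.3.3 with trended eBayes. The pseudocount of 1 understates the change of low genes. Tests were two-sided, with Benjamini-Hochberg adjustment over all genes of a contrast and a threshold of 0.05. Alternatives were pseudocounts of 0.1 and 5, no filter or one of 5 TPM, quantile, trimmed-mean and protein-coding scaling (GENCODE classes on GRCm38), a robust or untrended eBayes, a replicate block, a fit to the 2 groups compared alone, and each library left out. A crossed block was chosen after seeing the data.

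The members and lists were chosen with earlier results of these data known. Named by rule were Eed, Rnf2 and Ring1 as label checks, per comparison and complex the 2 passing members of smallest p in each direction (or the one of smallest p as not passing), the highest and lowest member of each complex, and the isoform pairs. A member that the rule would name is not reported here. Members described beyond this rule, and the shares within libraries, were chosen after their values were seen. Ring1 stood at 0 to 0.92 TPM over the libraries. The NRF1 motif was shortened to its core after the matches of a longer form had been seen. Copies were sought with blastn 2.17.0 (at least 95% identity over 150 bases). Tables and figures used Python 3.11.15, pandas 2.3.3, scipy 1.17.1 and matplotlib 3.10.9.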

Additional observations from a re-analysis of the deposited data

How the results depend on the processing

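Across the 65 values of named members and comparisons, 1125 of 1165 alternative values kept direction and side of the threshold, 30 fell short of it, 6 came to pass it and 4 turned sign. Those that turned were Cox6b2 in PRC1 cKO (-0.19 with trimmed means) and Ndufa11 between stages in the PRC2 control (0.27 with quantiles, 0.63 with trimmed means, 0.30 with protein-coding scaling). Most of the 65 were named for the smallest p of their complex, and Eed was among them. Results that did not pass and stayed so count as kept. These totals therefore do not describe the members at large. The members' median in growing PRC2 cKO ranged from -0.18 to 0.048 with 1 library left out, and turned to 0.03 without PRC2 control growing replicate 1 and 0.048 without PRC2 cKO growing replicate 2.

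Counts moved as follows. In the PRC2 control 38 members were lower and 2 higher in growing oocytes with trimmed means, and 2 were higher with quantiles. In the PRC2 cKO 1 was higher with quantiles. In PRC1 cKO 15 were higher and 3 lower with trimmed means, and 1 was lower with quantiles. The cause was not tested. Leaving out 1 library gave 78 to 81 lower members between stages in the PRC2 control, 79 to 81 in the PRC2 cKO, 43 to 67 higher in PRC1 cKO and 0 to 3 lower for the difference of PRC2 effects.

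Same-numbered libraries deviated together with correlations of -0.03 to 0.26 among PRC2 groups and -0.27 between PRC1 groups, so replicate numbers were not taken as pairs. With the replicate block 80, 81 and 57 members passed in the PRC2 control, PRC2 cKO and PRC1 comparisons, and 0 in the PRC2 knockout comparisons. With the crossed pairing 76 members were higher in PRC1 cKO. With 2 libraries a group and unknown depth, precision is limited most for members of a few TPM.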

Other observations

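In 4 of 6 groups the difference between replicates varied with the length of the coding sequence. Across 81 coding members the difference between replicates 2 and 1 correlated with log2 coding length at a Pearson r of 0.54 in PRC2 cKO growing and 0.47 in PRC2 control non-growing oocytes, at 0.17 in PRC2 cKO non-growing and 0.05 in PRC2 control growing oocytes, and across 82 members at 0.46 in PRC1 control and -0.41 in PRC1 cKO. The stage change in the PRC2 control had an r of 0.06 with coding length, and the PRC1 change one of -0.18. Replicate 2 was below replicate 1 in 75 of 82 members in PRC2 control growing oocytes.

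Among the 13 subunits encoded in mitochondrial DNA, mt-Nd3 was lower in growing control oocytes like most of the others, but was the 1 that was higher in growing cKO oocytes, where 10 were lower. It was listed at 0 in both PRC2 cKO non-growing and both PRC2 control growing libraries and stood at 6.93 and 13.0 TPM in PRC2 control non-growing and 6.93 and 14.7 TPM in PRC2 cKO growing libraries. Against PRC2 control, mt-Nd3 was thus lower in non-growing cKO oocytes (change -3.40, limma adjusted p = 0.0285). In growing cKO oocytes it was higher (change 3.48, limma adjusted p = 0.0348). The difference of these effects passed as well (6.88, limma adjusted p = 0.0148). No other subunit of the 13 passed in these knockout tests. For mt-Nd4l the libraries stood at 101 and 194 TPM in PRC2 control non-growing, 0 and 14.9 TPM in PRC2 control growing, 72.5 and 47.4 TPM in PRC2 cKO non-growing and 65.6 and 72.9 TPM in PRC2 cKO growing oocytes. In the PRC1 table mt-Nd3 was listed at 0 in 3 libraries and stood at 13.0 TPM in PRC1 cKO replicate 1. The libraries of that group thus differed by about as much as the PRC2 groups that were called different for mt-Nd3. TPM keeps no depth, so how many reads these values rest on is not known.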
